A study of Mus musculus with 2 samples.

Results

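The Lypd genes encode small proteins of the Ly6/uPAR family, and 8 of them (Lypd1, Lypd2, Lypd3, Lypd4, Lypd5, Lypd6, Lypd6b and Lypd8) are described here among 21887 protein-coding genes. For each gene, the deposited 100 bp windows overlapping the gene span plus 1 kb on each side were taken. This gave 563 of the 2537435 windows in the table. The genes had been proposed with their capture values in view, so those values are a description and carry no test.

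Testis DNA was compared between 2 libraries, both on the C57BL/6 background. The wildtype library came from mice with wildtype Kaiso, and the other from Kaiso KO mice, labelled as sterile male offspring of generation 3. Kaiso is the protein of Zbtb33. The labels name no age, allele or number of animals, and the description of the knockout library also calls its testis wildtype, so each knockout value rests on the genotype label. Sheared DNA was captured with a fragment of mouse MBD2 that binds methylated CpGs, and sequenced, so more reads in a window mean more captured, methylated DNA there.

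Ly6/uPAR proteins share a compact fold in which disulphide bonds hold out finger-like loops, and most are tethered to the cell surface by a lipid anchor. Members act as modulators of receptors, as adhesion molecules and as surface proteins of sperm, and many are made in few cell types. Dense methylation of CpGs around a gene start is commonly found where that gene is silent, and Kaiso is known as a reader of methylated CGCG and of the unmethylated sequence TCCTGCNA.

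The capture was deposited as counts, whole reads per window, and as RPKM, those counts scaled to the window length and the library size. Library sizes recovered from both were 87710791 wildtype and 98549116 knockout reads, and the median listed window held 39 and 40 counts. All listed windows have a deposited p under 0.05 between the libraries. A window that is not listed was therefore not shown to be equal, and ratios in listed windows are pushed away from 1. Ratios are knockout over wildtype, scaled by library reads, and with 1 library per genotype no difference has a replicate check. Intervals are exact 95% Clopper-Pearson intervals on fragments (window counts divided by 4) and cover counting error only. A region was called higher or lower with at least 20 fragments, a 2-fold difference and an interval that excludes 1. Zbtb33 itself had 303 wildtype and 83 knockout counts in 16 windows (log2 -2.04, -2.80 to -1.31). The labels do not say which part of the gene was deleted. Of all protein-coding genes with enough fragments 5.71% were called lower in the knockout library, and of those under 15 kb 10%. The Zbtb33 windows were CpG-poor, with a mean of 1.81 CpGs, so this value cannot settle the genotype label.

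Start sites and their upstream sequence, from RefSeq on GRCm38.p6 (the assembly of mm10), were found for 6 of the 8 genes, with 9 starts between them. Lypd2 and Lypd6b had no entry. The 250 bases before 5 of these starts are shown because capture over them differed widely, from starts nearly empty in wildtype and filled in the knockout library to a start with no listed window. They run 5′ to 3′ on the strand of the gene, and capitals mark CpGs, the sites that can be methylated and captured.
Lypd4 (chr7:24869692-24869941, minus strand): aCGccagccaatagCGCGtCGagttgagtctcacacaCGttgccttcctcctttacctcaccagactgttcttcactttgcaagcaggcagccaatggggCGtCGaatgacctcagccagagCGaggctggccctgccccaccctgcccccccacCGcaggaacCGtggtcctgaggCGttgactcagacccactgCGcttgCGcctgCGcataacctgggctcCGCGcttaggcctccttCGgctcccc
Lypd3 (chr7:24636320-24636569, plus strand): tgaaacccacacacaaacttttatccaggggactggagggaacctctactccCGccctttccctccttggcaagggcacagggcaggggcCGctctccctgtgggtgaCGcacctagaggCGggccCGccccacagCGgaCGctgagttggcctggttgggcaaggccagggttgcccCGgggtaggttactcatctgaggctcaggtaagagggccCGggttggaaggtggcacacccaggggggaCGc
Lypd8, second start (chr11:58380396-58380645, plus strand): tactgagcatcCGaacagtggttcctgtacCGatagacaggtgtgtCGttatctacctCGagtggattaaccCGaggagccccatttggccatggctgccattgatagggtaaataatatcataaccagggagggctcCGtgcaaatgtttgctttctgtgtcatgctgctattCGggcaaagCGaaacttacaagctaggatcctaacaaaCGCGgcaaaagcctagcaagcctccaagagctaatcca
Lypd5 (chr7:24348946-24349195, plus strand): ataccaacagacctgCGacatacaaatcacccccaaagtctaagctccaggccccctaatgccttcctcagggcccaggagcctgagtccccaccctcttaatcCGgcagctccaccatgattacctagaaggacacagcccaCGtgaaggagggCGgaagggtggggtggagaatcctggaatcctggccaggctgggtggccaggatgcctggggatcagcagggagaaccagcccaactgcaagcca
Lypd6 (chr2:50066179-50066428, plus strand): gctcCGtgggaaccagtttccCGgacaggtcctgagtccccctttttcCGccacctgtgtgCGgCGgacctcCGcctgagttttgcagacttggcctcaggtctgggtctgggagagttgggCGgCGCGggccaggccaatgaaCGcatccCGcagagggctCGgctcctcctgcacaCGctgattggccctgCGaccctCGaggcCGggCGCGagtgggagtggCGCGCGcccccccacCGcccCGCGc

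These stretches hold 17 CpGs in Lypd4, 10 in Lypd3, 10 at the second start of Lypd8, 4 in Lypd5 and 24 in Lypd6. Over the 300 bases of each table entry (250 before and 50 after the start) the numbers were 18, 12, 12, 5 and 31, against a median of 7 in all 32851 entries. At the Lypd4 entry, 4 windows were listed, with 5 to 7 wildtype and 77 to 89 knockout counts each (log2 3.57, 2.44 to 5.11). At Lypd3, 4 windows held 0 to 3 wildtype and 23 to 36 knockout counts (log2 3.77, 1.81 to 6.89). Both starts were nearly empty in wildtype. The second start of Lypd8 differed from them in already being captured in wildtype, with 26 to 42 counts in 4 windows, against 85 to 121 in the knockout library (log2 1.41, 0.84 to 2.03). The CpG-poor start of Lypd5 had 1 listed window, with 18 and 34 counts. The CpG-richest one, of Lypd6, had none, nor had the first start of Lypd8 or the 3 starts of Lypd1.

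Letters of the Kaiso sequences were searched on both strands of the 300 bases. CGCG, which can overlap itself, was found 8 times in Lypd6, 2 times in Lypd4, once each in Lypd3, at the second start of Lypd8 and at 2 of the Lypd1 starts, and not in Lypd5; 38.0% of all entries hold it. TCCTGCNA was found once at 1 start of Lypd1 and once at the first start of Lypd8, against 4.96% of all entries. A match describes these letters only. Both TCCTGCNA matches lie at starts without a listed window, and CGCG occurs at starts with and without listed windows.

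Lypd4, Lypd3 and Lypd5, 3 compact genes of chromosome 7, were called higher in the knockout library, and none of the 8 genes was called lower. Of 19251 protein-coding genes with enough fragments 9.62% were higher and 5.71% lower. Among genes under 15 kb these shares were 19.9% and 10%, and among longer ones 2.78% and 2.82%. Because the genes were chosen on this contrast, nothing is read from their count of 3. The median log2 ratio over the 8 genes was 0.64, against 0.31 over all genes and 0.47 over those under 15 kb.

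**Figure D1:**
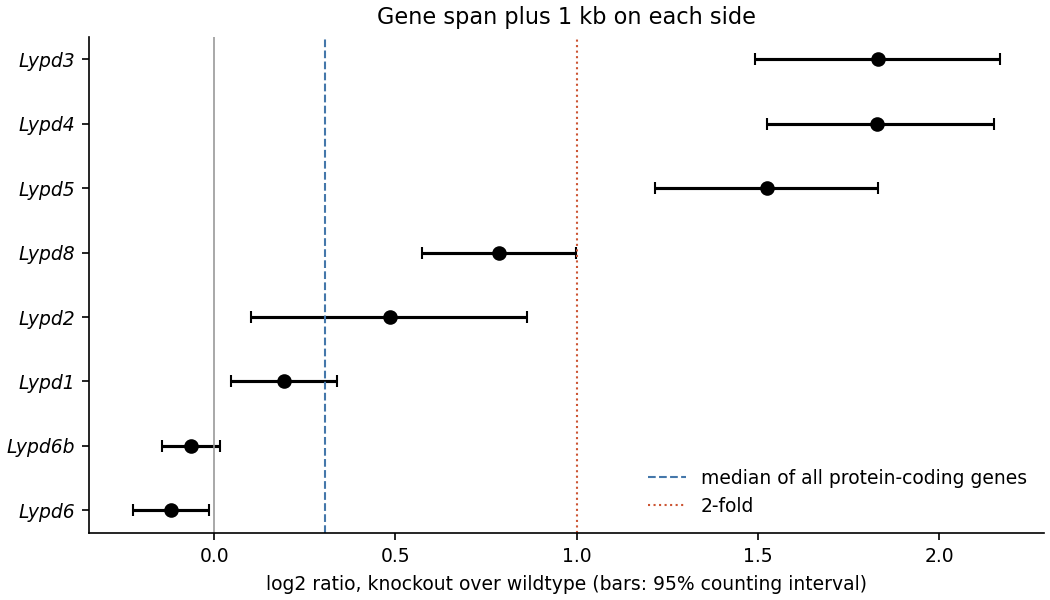
Log2 ratio of knockout over wildtype counts (x axis) for each of the 8 Lypd genes (y axis), over the gene span plus 1 kb on each side, with 1 library per genotype; bars are 95% counting intervals, the dashed line is the median of all protein-coding genes and the dotted line is 2-fold. Lypd3, Lypd4 and Lypd5 lie beyond 2-fold, between 1.52 and 1.83, and Lypd6 and Lypd6b lie just under 0.

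Lypd4, a testis gene whose protein is needed for sperm function in mice, was higher in the knockout library mainly at its start. The gene lies on the minus strand of chromosome 7 from 24864617 to 24869924 (mm10), and 31 of its 74 windows were listed. They held 433 wildtype and 1726 knockout counts, a 3.55-fold difference (log2 1.83, 1.52 to 2.15). Within 1 kb of the start, each of the 18 listed windows was higher in the knockout library, and their sums were 78 and 1053 counts (log2 3.59, 2.89 to 4.28). Its longest run, the 10 adjacent windows of chr7:24869601-24870600 with 59 CpGs, ranged from 3 to 7 wildtype and 61 to 89 knockout counts per window. Mean RPKM in that run was 0.673 in wildtype and 7.34 in the knockout library.

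Toward the far end of Lypd4 the difference was smaller. Further inside the gene 3 windows held 62 and 161 counts (log2 1.21, 0.29 to 2.09), and 3 more than 1 kb upstream of the start held 4 and 134 (log2 4.90, 2.34 to 10.26). Within 1 kb of the far end the sums were 289 and 378 (log2 0.22, -0.23 to 0.69), an interval that lies below that of the start and includes 0. At that end 3 windows with 1 CpG each were lower in the knockout library, with 69 and 20 counts, and the next 4 inward, with 2 to 4 CpGs, were higher, with 220 and 358. The largest sums of the gene stood in that second stretch, 60 and 106 counts in 1 window and 60 and 98 in the next.

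Lypd4 shares its start with Dmrtc2, a germ cell gene of the Dmrt family, whose span overlaps it on chromosome 7. Of the 31 Lypd4 windows 19 lie within 1 kb of the Dmrtc2 span as well, all of them higher in the knockout library (78 and 1158 counts). Around the Dmrtc2 start the log2 ratio was 3.78 (3.09 to 4.51). The capture in these shared windows cannot be assigned to either gene. They hold 1158 of the 1726 knockout counts of Lypd4 but only 78 of its 433 wildtype counts. The call of Lypd4 is therefore not separate from that of Dmrtc2.

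Lypd3, also called C4.4A, a surface protein of stratified epithelia, was higher throughout. It lies on the plus strand of chromosome 7 from 24636570 to 24641118, and all 30 listed windows of 67 were higher in the knockout library. They held 370 wildtype and 1479 knockout counts, a 3.56-fold difference (log2 1.83, 1.49 to 2.17). The 8 adjacent windows over the start, chr7:24636101-24636900, had 0 to 4 wildtype counts and 10 to 36 knockout counts each (log2 3.57, 1.94 to 5.32). In 3 of them, directly after the start, no wildtype read was counted.

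The knockout level at Lypd3 was higher toward its far end, where the longest run of the gene lay. In the 13 windows of chr7:24639701-24641000, with 45 CpGs, wildtype counts ranged from 4 to 13 and knockout counts from 17 to 97 (log2 2.76, 2.16 to 3.38). Mean RPKM in that run was 0.938 in wildtype and 6.34 in the knockout library, against 0.200 and 2.37 over the start. A middle stretch of 5 windows held 6 and 85 counts. Beyond the gene the libraries came closer, with 97 wildtype and 137 knockout counts in the last window and 87 and 135 in the one before it, the largest sums of the gene.

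Lypd5, a further member of the family, was higher in its body and beyond its far end more than at its start. It lies on the plus strand of chromosome 7 from 24349196 to 24354247, with 24 of 72 windows listed and 23 of them higher in the knockout library. The sums were 466 wildtype and 1506 knockout counts, a 2.88-fold difference (log2 1.52, 1.22 to 1.83). Its longest run, the 8 windows of chr7:24352401-24353200, had 2 to 14 wildtype and 41 to 56 knockout counts per window (log2 3.25, 2.27 to 4.31).

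Wildtype counts increased at the end of that run, to 14 in its last window. The next 6 listed windows had 30 to 56 wildtype and 72 to 141 knockout counts (log2 1.09, 0.68 to 1.52), and held the largest sums of the gene, 56 and 138 in 1 window and 53 and 141 in the next. Outside the gene, 4 windows were again nearly empty in wildtype, with 13 and 183 counts (log2 3.65, 2.13 to 6.10). The 1 window lower in the knockout library lay just before them, with 9 and 1 counts. Within 1 kb of the start 5 windows held 130 and 246 counts, a log2 ratio of 0.75 (0.11 to 1.40) under the 2-fold needed for a call. That interval lies below those of the starts of Lypd4 and Lypd3.

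Lypd8, made in the colon, where its protein keeps flagellated bacteria away from the epithelium, came close to a call. It lies on the plus strand of chromosome 11 from 58379032 to 58390541, and 21 of its 22 listed windows, of 136, were higher in the knockout library. The sums were 1106 wildtype and 2143 knockout counts, a 1.72-fold difference (log2 0.79, 0.57 to 1.00). The 11 windows around its second start, chr11:58380001-58381100, passed 2-fold, with 354 and 921 counts (log2 1.21, 0.84 to 1.57). Within them wildtype counts went from 63 at the upstream side to 4 at the downstream side, and knockout counts from 97 through a highest value of 121 to 22. A second stretch of 10 windows was well captured in both libraries, with 658 and 1157 counts (log2 0.65), and held the largest sums, 73 and 156 in 1 window and 79 and 148 in another. One window deeper in the gene was lower in the knockout library, with 94 and 65.

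**Figure D2:**
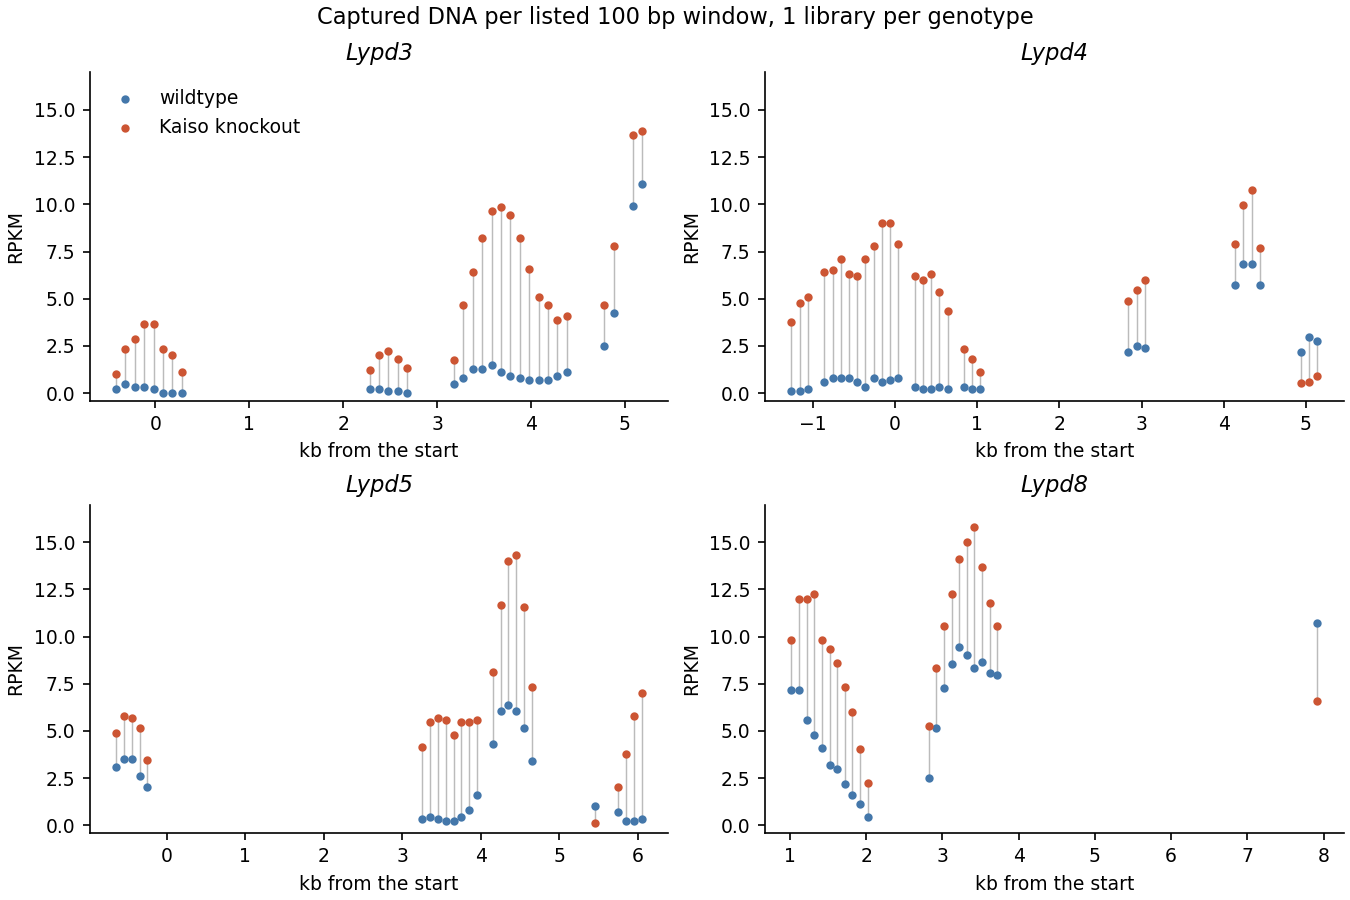
Deposited RPKM of each listed 100 bp window (y axis) by distance from the outermost RefSeq start in kb (x axis) for Lypd3, Lypd4, Lypd5 and Lypd8, wildtype in blue and Kaiso knockout in orange, 1 library each, with a grey line joining the values of a window. Wildtype points lie near 0 over the starts of Lypd3 and Lypd4 and in the body of Lypd5, where knockout points reach 3.65, 9.03 and 5.68 RPKM, whereas in Lypd8 most windows are well above 0 in both libraries.

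Calls around starts were frequent over the genome. Within 1 kb of their starts, 48.4% of the genes with enough fragments were called higher in the knockout library and 13.8% lower. Lypd3, Lypd4 and Lypd8 were called there and Lypd5 was not, while Lypd1 and Lypd6 had no more than 1 listed window. Around both gene ends together, the shares were 22.5% and 13.5%. There Lypd3 (log2 1.67), Lypd4 (1.89), Lypd5 (1.18) and Lypd6b (1.29) were called higher.

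Lypd2, the shortest of the 8 genes, rested on few windows. It lies on chromosome 15 from 74732246 to 74734795, with 6 of 46 windows listed, 387 wildtype and 609 knockout counts (log2 0.49, 0.10 to 0.86). Its most CpG-dense window, with 15 CpGs, was well captured in both libraries, with 95 and 129 counts. The run of 4 windows toward the end of higher coordinate held 272 and 475 counts (log2 0.64, 0.20 to 1.09), up to 73 and 140 in 1 window. In 1 window past that end the knockout library was lower, with 20 and 5.

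The long genes, whose proteins act on receptors, had sums near equality. Lypd1, also called Lynx2, and Lypd6b are known as modulators of nicotinic acetylcholine receptors, and Lypd6 acts on those receptors and on Wnt signalling. Lypd1 spans 45.6 kb of chromosome 1, from 125867622 to 125913175, and had 2718 wildtype and 3493 knockout counts in 63 windows (log2 0.19, 0.046 to 0.34). Lypd6 spans 127 kb of chromosome 2, from 50066400 to 50193569, and had 5768 and 5967 counts in 148 windows (-0.12, -0.22 to -0.013). Its neighbour Lypd6b spans 162 kb, from 49787340 to 49948849, and had 9800 and 10539 in 239 windows (-0.063, -0.14 to 0.017).

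These sums covered windows that differed in both directions. The knockout library was higher in 30 and lower in 33 windows of Lypd1, in Lypd6 51 and 97, and in Lypd6b 105 and 134. The higher windows were the more CpG-rich ones, with a mean of 3.10, 2.37 and 2.59 CpGs in these genes, against 1.64, 1.67 and 1.62 in the lower ones. The lower windows differed by more, with median log2 ratios of -1.80, -1.57 and -1.69 against 0.62, 0.77 and 0.65 in the higher ones, and they held fewer counts.

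Single stretches of the long genes stood out from their sums. In Lypd1 the longest higher run, the 8 windows of chr1:125872001-125872800, had 61 to 68 wildtype and 102 to 153 knockout counts (log2 0.88, 0.56 to 1.19). That stretch overlaps Gpr39, a receptor gene with which Lypd1 shares 16 of its 63 windows. The largest sums of Lypd1 lay outside it, 88 and 146 counts in 1 window and 93 and 131 in another. The longest lower runs of Lypd1 were of 4 windows, and the one with the lowest ratio held 99 and 36 counts (log2 -1.63, -2.93 to -0.49).

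In Lypd6 the longest runs were of 5 windows in either direction. The higher run nearest to its CpG-rich start, chr2:50071001-50071500, went from 10 to 30 wildtype and 49 to 83 knockout counts (log2 1.73, 1.04 to 2.42). Of the lower runs of that length, the one with the lowest ratio, chr2:50151601-50152100, held 152 and 44 counts (log2 -1.96, -3.07 to -0.96). A shorter lower stretch of 3 windows had a lower ratio, with 66 and 7 counts (log2 -3.41, -6.41 to -1.18). The other higher runs of 5 windows had log2 ratios of 0.97 and 1.13, so stretches of Lypd6 differed in both directions. Its largest sums stood near the far end, with 84 and 130 in 1 window and 73 and 130 in the next.

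Lypd6b held stretches nearly empty in 1 of the libraries beside others captured in both. At its end of lower coordinate all 9 listed windows were higher in the knockout library and summed to 24 and 199 counts (log2 2.88, 1.67 to 4.40), and the innermost 3 of them, with up to 12 CpGs, held no wildtype read. At the other end 3 windows held 56 and 21 counts, too few for a call.

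Inside the gene, the longest higher run, the 7 windows of chr2:49861401-49862100 had 0 to 5 wildtype and 18 to 49 knockout counts (log2 3.59, 2.21 to 5.18). Its longest lower run, the 7 windows of chr2:49816501-49817200, had 27 to 45 wildtype and 7 to 11 knockout counts (log2 -2.29, -3.18 to -1.5). Ranges of the libraries did not overlap in either run. The runs were picked as the longest in each direction, from windows that all have a deposited p under 0.05. Neighbouring windows also share reads, so this separation follows largely from selection. Among all runs of listed windows, 14.8% of the higher and 2.21% of the lower ones had 6 or more windows. Neither run of Lypd6b is visible in the sum over the whole gene. The largest sums of Lypd6b were 98 and 144 counts in 1 window and 93 and 139 in another.

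**Figure D3:**
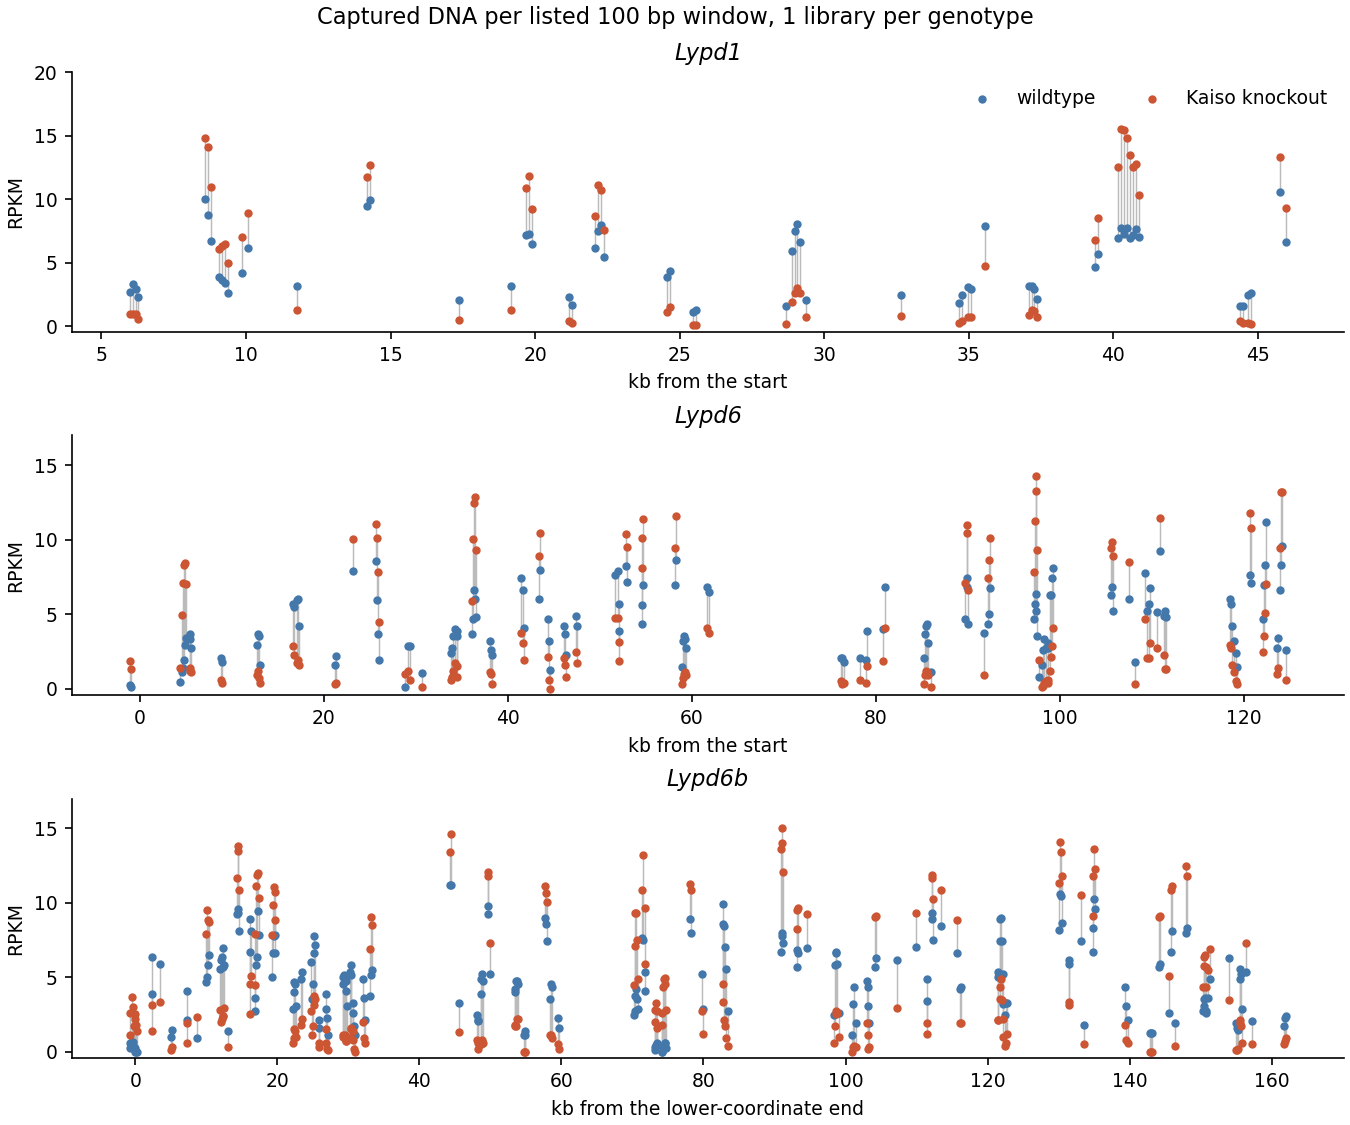
Deposited RPKM of each listed 100 bp window (y axis) by distance in kb (x axis) for Lypd1, Lypd6 and Lypd6b, wildtype in blue and Kaiso knockout in orange, 1 library each; distance runs from the outermost RefSeq start, or from the gene end of lower coordinate for Lypd6b. Orange points lie above blue ones in 30 of 63, 51 of 148 and 105 of 239 windows, in stretches mixed along each gene.

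Read per window, levels set 3 genes apart in wildtype and not in the knockout library. Mean wildtype RPKM per listed window was 1.41 in Lypd3 (95% interval 1.14 to 1.73), 1.59 in Lypd4 (1.30 to 1.92) and 2.21 in Lypd5 (1.84 to 2.66). It was 4.44 in Lypd6, 4.67 in Lypd6b, 4.92 in Lypd1, 5.73 in Lypd8 and 7.35 in Lypd2. Neighbours in this order have overlapping counting intervals, except Lypd5 and Lypd6, whose interval starts at 4.22. In the knockout library the order was Lypd6 (4.09), Lypd6b (4.47), Lypd3 (5.0), Lypd1 (5.63), Lypd4 (5.65), Lypd5 (6.37), Lypd8 (9.88) and Lypd2 (10.3), with intervals of neighbours that did not overlap only between Lypd6 and Lypd6b, by a narrow margin, and between Lypd5 and Lypd8. Lypd3, Lypd4 and Lypd5 thus lay below all other Lypd genes in wildtype and among them in the knockout library. These means cover listed windows only, and a window nearly empty in wildtype is listed only where its knockout count is high. The genes were also proposed with their values in view, so a low wildtype level in the genes with the highest ratios follows from selection. The relative methylation score that the authors deposited, on a scale no source used here explains, had medians of 0.0174 wildtype and 0.104 knockout in Lypd3, 0.0146 and 0.118 in Lypd4, and 0.0823 and 0.165 in Lypd5. In Lypd1, Lypd2, Lypd6 and Lypd6b its median was the higher one in wildtype, as it was over all listed windows (0.186 wildtype and 0.153 knockout).

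Windows with almost no wildtype capture made up much of the 3 genes called higher. Wildtype RPKM was under 1 in 21 of 30 windows of Lypd3, 21 of 31 of Lypd4 and 11 of 24 of Lypd5. The other 5 genes had 22 such windows in Lypd6b (9.21%), 5 in Lypd6 (3.38%), 1 in Lypd8 (4.55%) and none in Lypd1 or Lypd2. The share among all listed windows was 9.44%. A change of at least 4-fold upward was seen in 22 windows of Lypd3 (73.3%), 21 of Lypd4 (67.7%) and 10 of Lypd5 (41.7%). Upward changes of this size were also seen in 20 windows of Lypd6b (8.37%), 6 of Lypd6 (4.05%) and 1 of Lypd8 (4.55%). The share among all listed windows was 9.44% here too. A change of at least 4-fold downward was seen in 47 windows of Lypd6b, 30 of Lypd6 and 13 of Lypd1, or 19.7, 20.3 and 20.6% of their windows, against 15.7% of all. Such windows also numbered 2 in Lypd4, 1 in Lypd5 and 1 in Lypd2. Windows without a read in 1 library were set to a floor of 3 counts for these folds.

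CpG number went with direction over the whole table, and Lypd3, Lypd4 and Lypd5 were higher at each number. Of all listed windows 56.5% were higher in the knockout library, with 37.8% of those with 1 CpG, 49.2% with 2 and 98.9% with 5 or more. In Lypd3, Lypd4 and Lypd5 together 16 of 20 windows with 1 CpG were higher, and all 19 with 2 and all 17 with 5 or more. In Lypd1, Lypd6 and Lypd6b the numbers were 51 of 179, 51 of 158 and 20 of 21. These shares are below those of all listed windows, the last of them only slightly. With 5 or more CpGs the median log2 ratio was 3.44 in the first set, 0.61 in the second and 0.67 in all listed windows. Neighbouring windows share reads, so these counts are not of independent observations. The first set holds the genes called higher, so its high shares and median follow from how it was formed.

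**Figure D4:**
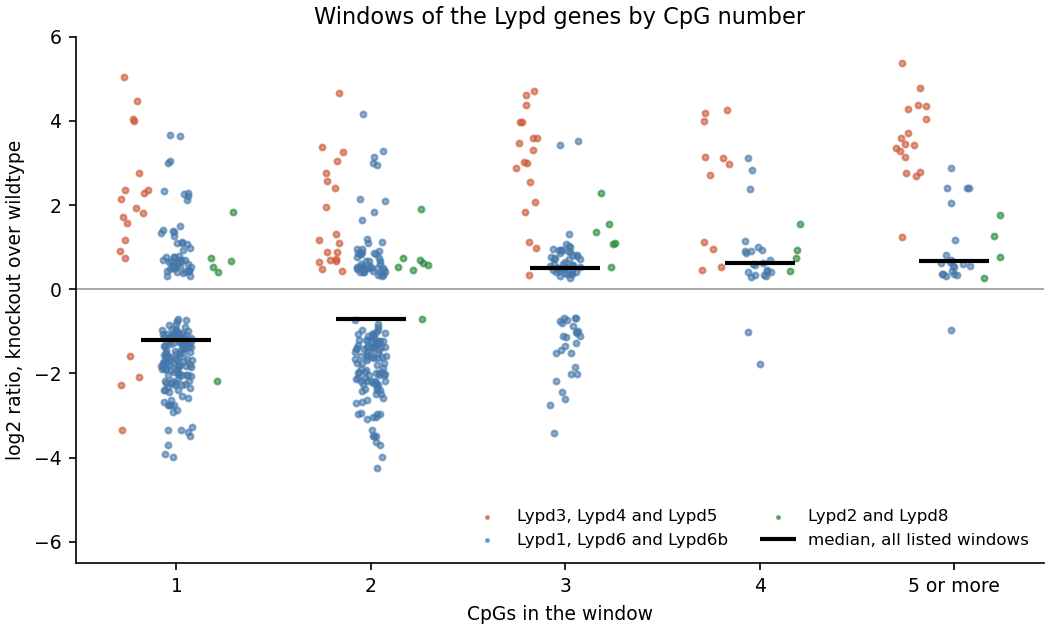
Log2 ratio of knockout over wildtype RPKM (y axis) of each listed window of the Lypd genes by its number of CpGs (x axis), in 3 sets of genes set side by side, with 0 counts set to a floor of 3; black bars are medians of all listed windows. Windows of Lypd3, Lypd4 and Lypd5, a set formed from the genes called higher, lie mostly above the bars at each CpG number. Their medians are 1.86 at 1 CpG and 3.44 at 5 or more. The gap around 0 comes from the selection on p.

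The surroundings of the genes were summed in the same way. In listed windows up to 500 kb from the gene, without its own, the log2 ratio was 0.51 around Lypd3, 0.46 around Lypd4 and 0.53 around Lypd5, stretches that overlap each other. It was 0.36 around Lypd8, 0.11 around Lypd6b, 0.073 around Lypd6, 0.071 around Lypd2 and -0.21 around Lypd1. These values describe the windows around genes that were themselves chosen for their ratios. On the scale of total autosomal counts each is shifted by -0.27, and those around Lypd6b, Lypd6 and Lypd2 are then below 0.

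Scaling moved these ratios together. Total autosomal counts in place of library reads shifted all ratios by -0.27 and the authors' offset by 0.13. Setting the median of windows with 5 or more CpGs to 0, an alternative chosen after the data were seen, shifted them by -0.67. Lypd3 and Lypd4 remained called higher under each of the 12 alternatives, among them 1.17 and 1.16 under that last scaling, whereas Lypd5 was under 2-fold there at 0.86. Of all called genes 62.8% were higher with library reads, 47.6% with autosomal counts, 70.7% with the authors' offset, 82.4% when each CpG number was set to a median of 0, and 27.9% under the last scaling.

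Germ and somatic cells of the testis differ in methylation, and the share of each in the samples is not known. Germ cell genes of the kind that somatic cells keep methylated were higher around their gene ends in 17 of 20 cases and lower in 0 (median log2 2.36), with mean RPKM from 0.428 to 3.59 in wildtype and 3.75 to 7.78 in the knockout library. Maternally imprinted genes, unmethylated in sperm, were higher in 9 of 9 (median 2.41, 0.244 to 1.36 and 3.25 to 5.98 RPKM). Sertoli cell genes were higher in 4 of 9 (median 1.06, 0.50 to 5.28 and 2.11 to 7.08 RPKM) and Leydig cell genes in 3 of 6 (median 1.02, 0.150 to 5.28 and 2.19 to 5.83 RPKM). No Sertoli, Leydig or imprinted gene was lower. None of these genes with a listed window had 0 counts in either library. Of all protein-coding genes with enough fragments around their ends, 22.5% were higher and 13.5% lower, with a median of 0.50. The part of cell composition in the Lypd values was not tested, and a change of methylation within cells and a change in the share of cells cannot be told apart in such samples.

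Other genes of the Ly6/uPAR family were called in both directions. Of 40 listed genes outside the 8, 33 had a window and 30 enough fragments. The knockout library was higher in 4 of these and lower in 4 (13.3% each), against 9.62% and 5.71% of all genes. Their median log2 ratio was 0.47, where all genes have 0.31. Most of these genes are under 15 kb, and over all genes of that length the shares are 19.9% and 10% and the median is 0.47. The higher ones were Gml (61 wildtype and 286 knockout counts, log2 2.06, 1.28 to 3.00), Lypd10 (276 and 828, 1.42), Lypd9 (446 and 1097, 1.13) and Ly6k (739 and 1674, 1.01), a gene of male germ cells. Lypd10 lies between Lypd3 and Lypd4 on chromosome 7, and Lypd9 lies 55.6 kb from Lypd8 on chromosome 11.

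The lower ones were Pate3 (82 and 6 counts, log2 -3.94, -6.70 to -1.53) and Pate4 (135 and 24, -2.66), of a cluster of secreted proteins on chromosome 9, and Ly6d (391 and 130, -1.76) and Slurp2 (371 and 184, -1.18) of chromosome 15. Their listed windows were CpG-poor, with means of 1.25 to 1.89 CpGs, and none was higher in the knockout library. Lypd3, Lypd4 and Lypd5 had higher ratios than all genes of this list with enough fragments except Gml. Because the Lypd genes were proposed with these values in view, that order is a description only. The intervals of Gml and of Lypd10 (1.02 to 1.83) overlap those of all 3. Those of Lypd9 (0.80 to 1.45), Ly6k (0.76 to 1.27), Psca (-0.25 to 1.29) and Ly6g6c (0.093 to 1.25) overlap that of Lypd5. Nearest to the mean wildtype and knockout RPKM of all Lypd windows, by distance on the log2(RPKM + 0.1) scale over the 2 libraries, were Acrv1 (4.43 and 4.36 RPKM), Cd59a (3.93 and 4.30) and Ly6g6d (5.02 and 5.49). Of the 563 Lypd windows 450 lie in Lypd1, Lypd6 and Lypd6b, so this likeness is mainly to the long genes.

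**Figure D5:**
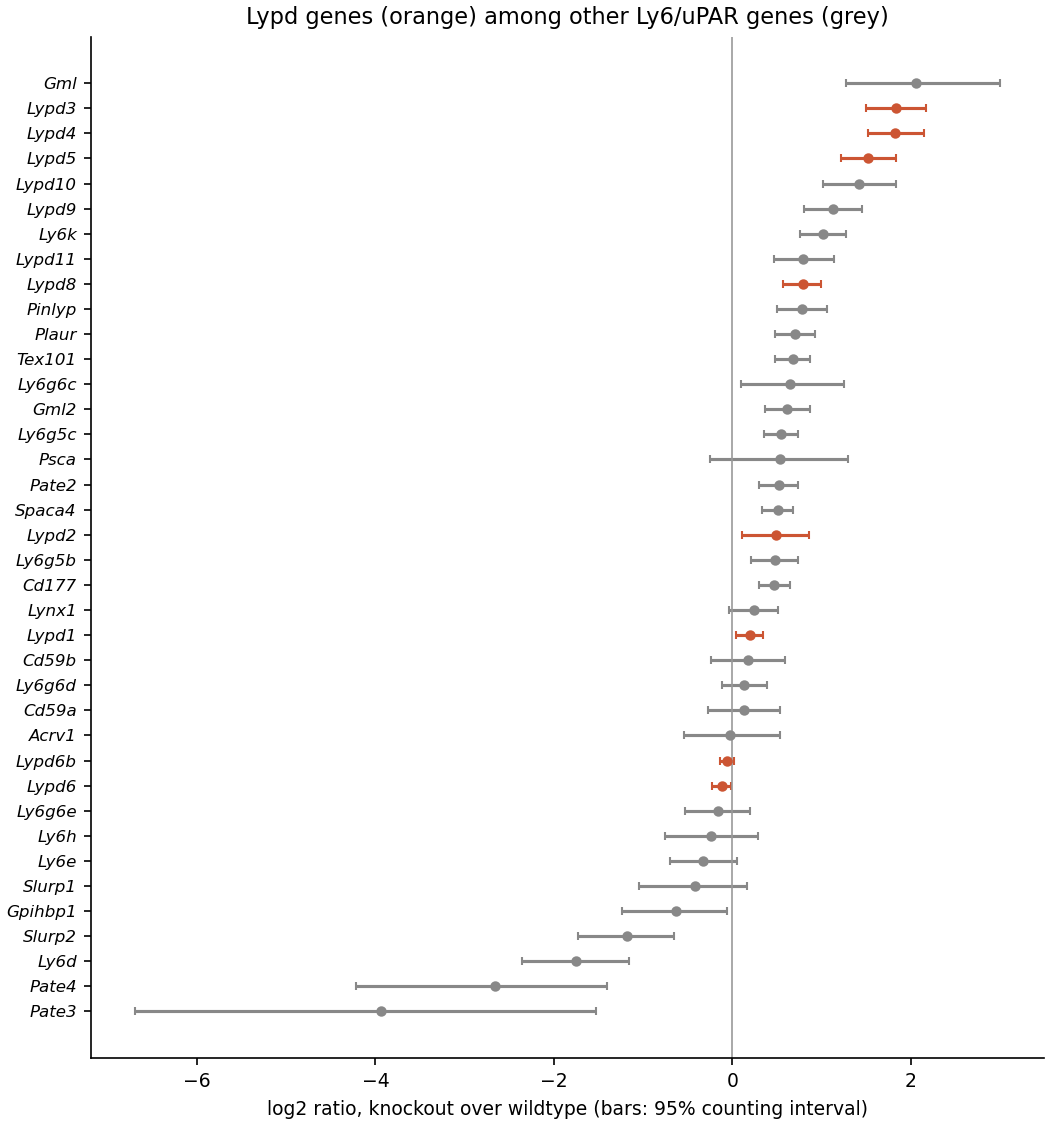
Log2 ratio of knockout over wildtype counts (x axis) over the gene span plus 1 kb on each side, for the 8 Lypd genes (orange) and 30 other Ly6/uPAR genes with enough fragments (grey), 1 library per genotype; bars are 95% counting intervals. Lypd3, Lypd4 and Lypd5 stand just below Gml at the top, and Pate3, at -3.94 with the widest interval, at the bottom.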

How the data were processed

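MBD2 capture of testis DNA was compared between 1 wildtype and 1 Kaiso knockout library, grouped by the genotype label. Bowtie2 2.2.6, edgeR and the mm10 build are named in the submitters' processing notes, without their roles or settings. Per the file headers, whose names match the output of the MEDIPS package, the authors deposited 1 table of 100 bp windows with the count of reads, the RPKM, a relative methylation score, the CpG number (another count, of sequence), a log2 fold change and a p-value; another 10 columns of values per sample or group were not used. The deposited p-value was at most 0.0500 in every window. The deposited log2 fold change, coded wildtype over knockout, served only to recover the authors' scaling.

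Window counts were summed over gene spans of the GRCm38.p6 annotation with Python 3.11.15 and scipy 1.17.1. A sum without a whole fragment was set to 3 fragments. Read extension and the handling of duplicates are not given in the sources used here. The deposited CpG number matched the RefSeq promoter sequence within 1 in 8737 of 8737 windows. Sums and calls were tested on simulated data. Genes were named by rule: the 8 Lypd genes, up to 4 called each way by interval bound among Ly6/uPAR genes and neighbours within 100 kb, the 3 nearest in level, and per Lypd gene the 2 windows with the largest sums and the longest runs. Other stretches and overlapping genes were named after their values were seen. All 40 Ly6/uPAR, 20 germ cell, 10 Sertoli and 7 Leydig genes were matched by symbol, and 10 of 12 imprinted ones. Members and lists were chosen with earlier results of these data known. Scalings, flanks, regions, minimums and window filters were varied.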

Additional observations from a re-analysis of the deposited data

How the results depend on the processing

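No paired analysis was possible because each group held 1 library, and no library could be left out. Depth limits short regions most, and Lypd2 rests on 6 windows. With total autosomal counts the log2 ratio was -0.078 for Lypd1, -0.39 for Lypd6, -0.34 for Lypd6b and 0.51 for Lypd8, and 2 Ly6/uPAR genes were higher. With the authors' offset Lypd6 had 0.011 and Lypd6b 0.067. With each CpG number set to a median of 0, Lypd2 had -0.23, Lypd6 0.17 and Lypd6b 0.24, and 459 protein-coding genes were lower, against 1099 with library reads. With CpG-dense windows (5 or more) set to a median of 0, added after the data were seen, Lypd1 had -0.47, Lypd2 -0.18, Lypd5 0.86 (no longer called), Lypd6 -0.79, Lypd6b -0.73 and Lypd8 0.12. There 898 protein-coding genes were higher and 2324 lower, and 1 Ly6/uPAR gene was higher.

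With gene ends only, Lypd6b turned to 1.29 and was called higher, Lypd1 had -0.10, Lypd6 3.20 on 2 windows with too few fragments for a call, and Lypd8 0.45; 7 Ly6/uPAR genes were higher, and 3354 protein-coding genes were higher and 2012 lower. With 5 kb flanks Lypd2 had -0.36 and 2 Ly6/uPAR genes were higher. A 1.5-fold minimum added Lypd8 at 0.79, and gave 10 Ly6/uPAR and 4156 protein-coding genes as higher. Windows with a deposited p of at most 0.01 gave Lypd6 -0.0021, with 7 Ly6/uPAR genes higher and 7 lower, and windows with at least 30 counts gave 2 Ly6/uPAR genes as lower. Regions and filters change by construction which windows are summed; beyond that the cause was not tested.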

Other observations

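Other genes within 100 kb of the Lypd genes numbered 52, of which 51 had enough fragments. The knockout library was higher in 11 and lower in 3 of them, where the shares of all protein-coding genes are 9.62% and 5.71%. Most of these neighbours are under 15 kb, and among all genes of that length the shares are 19.9% and 10%. Dmrtc2, counted among the higher ones, shares 19 windows with Lypd4. These hold 78 wildtype and 1158 knockout counts of its 848 and 2374, so its call is not separate from that of Lypd4. The median log2 ratio of the neighbours was 0.60, against 0.31 over all genes and 0.47 over those under 15 kb. The highest by interval bound were Zfp672, a zinc finger gene 48.7 kb from Lypd8 (233 wildtype and 1201 knockout counts, log2 2.2, 1.79 to 2.63), Irgq (531 and 2357, 1.98) and the zinc finger gene Zfp575 (414 and 1449, 1.64) near Lypd3, and Gml near Lypd2. The lower ones were Mmadhc near Lypd6 (78 and 20, -2.13, -3.94 to -0.71), a gene of vitamin B12 metabolism, and Ly6d and Slurp2 near Lypd2.

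Lypd11, beside Lypd10 on chromosome 7, had 448 wildtype and 874 knockout counts over its span (log2 0.80, 0.46 to 1.14), under 2-fold, and 141 and 771 around its ends (2.28, 1.77 to 2.86). Lynx1, a nicotinic receptor modulator like Lypd1, had 0.24 over its span and 2.02 (1.13 to 3.01) around its ends. Gml2 also was called higher around its ends (2.06, 1.28 to 3.00) but not over its span (0.61), on the sums also found over the Gml span, 61 and 286 counts. Ly6e was called lower around its ends (-1.29, -2.09 to -0.58) but not over its span (-0.33). These 4 are the genes of the list called around their ends only, and were singled out after their values were seen. No listed window lay at Ly6a, Ly6c1, Ly6c2, Ly6f, Ly6g2, Ly6l or Pate1, which were not analysed here.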
